A study of Mus musculus with 2 samples.

Results

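The genes described here are 32 genes of the cellular response to low oxygen and of glycolysis, chosen by name: 3 transporters of glucose and lactate, 13 glycolytic enzymes, 2 regulators of glycolytic flux, 11 other known targets of hypoxia-inducible factor (HIF), and 3 genes of oxygen sensing. They were looked up by symbol among the 31205 distinct symbols of the deposited matrices, and all 32 were found, in 33 rows because Aldoa has 2. Each cell was scored by the summed UMIs (unique molecular identifiers, 1 per captured transcript end) of the 32 genes over its total UMIs, and the sum is called the module below.

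The study held 2 single-cell RNA libraries, made with the BD Rhapsody whole-transcriptome chemistry from live cells sorted for CD45, the leukocyte surface protein encoded by Ptprc. The cells came from tumours of MB49, a mouse bladder cancer line. By the protocol, the hosts were lethally irradiated female mice given marrow from male donors, either WT donors or donors lacking Lcn2, the gene of the siderophore-binding protein lipocalin 2. One library carries the genotype label wt and the other Lcn2-ko, and both are labelled female, although the protocol also speaks of tumours from mice of both sexes, so the sex of the tumour hosts is not settled by the labels. The share of host cells left after irradiation is not given. Ages, the time of tumour growth and the number of pooled tumours are not given in the sources used here. In such chimeras the tumour cells and any host cells that survived irradiation keep their own Lcn2, so only marrow-derived cells were meant to lack it.

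HIF-1 is a dimer whose alpha subunit, encoded by Hif1a, is hydroxylated in the presence of oxygen by the prolyl hydroxylases of the Egln family and is then degraded. At low oxygen the alpha subunit builds up and, with its partner, binds short DNA elements near genes for glucose uptake, glycolysis, lactate export, vessel growth and mitochondrial turnover. Tumours hold poorly oxygenated regions, and neutrophils are known for drawing most of their energy from glycolysis.

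With 1 library per label there was no test, and no difference between the libraries has a replicate check. All intervals are 95% intervals for counting error only. The Lcn2 level did not check the label. In neutrophils it was 191 CPM (UMIs of the gene scaled to a total of 1e+06) in the wt library and 128 CPM in the Lcn2-ko-labelled library, and UMIs mark transcript ends, which need not lie in the deleted part. The wt library held 42069099 UMIs in 7974 barcodes and the other 40959725 UMIs in 7788 barcodes, with median depths of 3574.5 and 3570 UMIs. The libraries shared 4 barcodes. After filtering, 7396 and 7241 cells were kept, of which 11.1% and 11.6% met no class gate.

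Cells were placed in classes by marker genes that are not among the 32. The gates gave 660 neutrophils in the wt library and 420 in the Lcn2-ko-labelled library, 296 and 345 monocyte-macrophages, 596 and 402 dendritic cells, 2889 and 3189 T cells, and 175 and 248 NK cells. A further 257 and 274 cells carried markers of both neutrophils and macrophages and were kept apart. Although the sort was for CD45, 1592 and 1436 cells had no Ptprc UMI and carried markers such as Krt18 and Col1a1. These are called Ptprc-negative cells. They also held the fibroblast gene Dcn at 182 and 206 CPM, so they may not all be tumour cells. B cells (38 and 34) and mast cells or basophils (74 and 55) were too few for a comparison between the libraries. The gates cut a continuous score, and 36.1% and 37.1% of the monocyte-macrophages lay near the cut, against 12.7% and 14.0% of the neutrophils. The median neutrophil-gated cell had 0 CPM of macrophage markers in both libraries, although 43.3% and 43.1% of these cells held at least 1 such UMI. The median monocyte-macrophage held neutrophil markers at 1105 and 1161 CPM.

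The 150 bases before the start of some of these genes are shown because the data below split the genes by class, and because the HIF element has a short core that can be read in them. The core letters searched were ACGTG and GCGTG on both strands, which read CACGT and CACGC on the opposite one, and overlapping matches were counted. RefSeq starts on GRCm38.p6 were found for 29 of the 32 genes, and Slc2a3, Bnip3l and Ndrg1 had none in the table used. A match lay in this window of at least 1 start in 24 of the 29 genes (82.8%), against 8483 of 27025 genes overall (31.4%). Base composition was not matched, and a match is only a run of letters. The first 3 windows below belong to genes at least 2-fold higher in Ptprc-negative cells than in the other gated cells, of which P4ha1 was higher still in neutrophils (318 and 317 CPM, against 259 and 256 CPM in Ptprc-negative cells). The next belongs to a glycolytic enzyme high in both those cells and neutrophils. The last 2 belong to genes highest in neutrophils, of which Egln3 was also at least 2-fold higher in Ptprc-negative cells than in the other gated cells. Each reads 5′ to 3′ on the strand of its gene, overlaps no annotated exon, and has the core letters in capitals.
Adm, chr7:110627507-110627656, plus strand: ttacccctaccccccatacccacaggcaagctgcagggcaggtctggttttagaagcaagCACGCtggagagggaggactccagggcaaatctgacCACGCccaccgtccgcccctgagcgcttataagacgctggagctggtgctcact
P4ha1, chr10:59323146-59323295, plus strand: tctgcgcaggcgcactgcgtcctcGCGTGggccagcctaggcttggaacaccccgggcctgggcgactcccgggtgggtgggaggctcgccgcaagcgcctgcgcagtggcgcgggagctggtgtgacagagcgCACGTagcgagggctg
P4ha2, chr11:54100774-54100923, plus strand: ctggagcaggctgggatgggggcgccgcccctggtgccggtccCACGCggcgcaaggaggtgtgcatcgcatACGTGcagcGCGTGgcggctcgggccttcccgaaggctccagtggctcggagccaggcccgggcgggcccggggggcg
Ldha, chr7:46845654-46845803, plus strand: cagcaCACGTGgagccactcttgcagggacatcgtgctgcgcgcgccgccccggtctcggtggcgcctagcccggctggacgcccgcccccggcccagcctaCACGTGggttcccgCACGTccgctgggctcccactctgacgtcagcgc
Egln3, chr12:54203875-54204024, minus strand: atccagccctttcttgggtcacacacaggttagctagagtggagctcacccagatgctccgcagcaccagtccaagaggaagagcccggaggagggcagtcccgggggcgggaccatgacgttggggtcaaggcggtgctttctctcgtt
Hilpda, chr6:29272338-29272487, plus strand: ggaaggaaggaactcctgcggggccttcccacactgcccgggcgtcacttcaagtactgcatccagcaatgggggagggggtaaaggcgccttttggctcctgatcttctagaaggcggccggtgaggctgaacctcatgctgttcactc
The Adm window holds 2 matches, P4ha1 2, P4ha2 3 and Ldha 5. The Egln3 window and the window before the first Hilpda start hold none. A second Hilpda start has 3 matches in its window, which overlaps an exon and is not shown. The windows shown do not stand for their groups. Other genes at least 2-fold higher in neutrophils had matches in windows that overlap an exon: Slc2a1 2, Slc16a3 2, Bnip3 5, and Pfkfb3 1 and 3. Of other genes at least 2-fold higher in Ptprc-negative cells, Hk2, Pgam1 and Car9 had matches, and Vegfa and Tpi1 had none. Nothing about binding was measured here, and no difference between the groups of windows was tested.

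The module was highest in Ptprc-negative cells and neutrophils. It took 14522 CPM (interval 14460 to 14584) of the UMIs of Ptprc-negative cells in the wt library and 15313 (15247 to 15379) in the Lcn2-ko-labelled library. Neutrophils followed at 14119 (13909 to 14330) and 14423 (14147 to 14703) CPM. T cells stood at 8706 and 9156 CPM and monocyte-macrophages at 8298 and 9396 CPM. Dendritic cells, at 5381 and 5747 CPM, and NK cells, at 5449 and 5365 CPM, were lowest. Of the 15 pairs of classes 13 had the same order in both libraries. T cells and monocyte-macrophages changed places, as did dendritic cells and NK cells. The mixed cells lay at 9978 and 11380 CPM, between monocyte-macrophages and neutrophils.

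**Figure D1:**
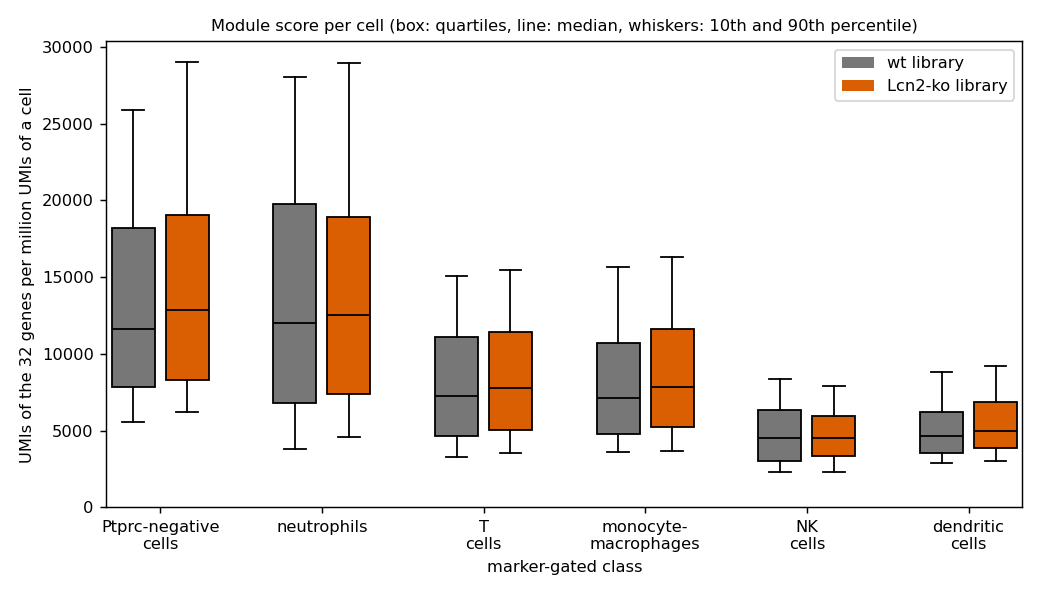
Module score per cell, in CPM of the cell's own UMIs, by class, in the wt library (grey) and the Lcn2-ko-labelled library (orange). Boxes span the quartiles, lines are medians and whiskers reach the 10th and 90th percentiles; the medians of neutrophils are 11999 and 12555, those of NK cells 4519 and 4538.

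Scores of single cells in 1 class spread further than the module level differed between the libraries. Counting error in single cells is part of this spread, and its share was not tested. In neutrophils the per-cell score ran from 3772 at the 10th percentile to 28046 at the 90th in the wt library, and from 4587 to 28959 in the other. The depth of classes was unequal, with a median of 1407.5 UMIs in wt neutrophils and 8212 in wt Ptprc-negative cells. With every cell thinned to 800 UMIs, the median score was 12500 in neutrophils of both libraries, 11250 and 12500 in Ptprc-negative cells and 5000 in dendritic cells of both. Thinning left out 65 and 67 neutrophils that were shallower.

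Gapdh, Ndrg1, Pgk1 and Pgam1 were the 4 genes with the most UMIs over all cells, and all 4 were highest in Ptprc-negative cells, which gave many of those UMIs. Without them, a choice of genes that itself lowers Ptprc-negative cells most, neutrophils stood at 11185 and 11272 CPM, and Ptprc-negative cells stood at 7386 and 7842 CPM. The genes behind the totals of these 2 classes are given next.

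Neutrophils held the transporters. Slc2a1, which encodes the widely used glucose transporter GLUT1, stood at 939 CPM in wt neutrophils and 712 CPM in neutrophils of the Lcn2-ko-labelled library, 3.54-fold and 2.78-fold the level in all other gated cells. Slc2a3, which encodes the high-affinity transporter GLUT3, stood at 358 and 261 CPM, 13.6-fold and 9.74-fold the other cells. It was near absent from Ptprc-negative cells, at 6.26 and 6.04 CPM. Slc16a3, which encodes the lactate exporter MCT4, had 199 and 194 CPM in neutrophils, 9.66-fold and 8.24-fold the others, and 2.27 and 2.01 CPM in Ptprc-negative cells. Levels of different genes can be compared here without a length correction, since each UMI marks 1 transcript end.

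Hilpda encodes a small lipid-droplet protein that inhibits fat breakdown. It was the most abundant of the 32 genes in neutrophils, at 2665 and 3160 CPM, 10.3-fold and 10.0-fold the other gated cells. Monocyte-macrophages had 653 and 721 CPM, T cells 398 and 453, and Ptprc-negative cells 148 and 165. In cells thinned to 800 UMIs, a Hilpda UMI was found in 56.1% and 54.4% of neutrophils and in 8.04% and 9.52% of Ptprc-negative cells. Before thinning, with median depths of 1407.5 and 1296.5 UMIs in neutrophils against 8212 and 8473.5 in Ptprc-negative cells, these shares were 63.3% and 62.1% against 38.4% and 42.3%. The order of the 2 classes was the same with and without thinning.

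Egln3, Pfkfb3 and Bnip3 were also at least 2-fold higher in neutrophils in both libraries. Egln3, the prolyl hydroxylase most readily induced by HIF, stood at 860 and 708 CPM. Pfkfb3, which makes the sugar phosphate that activates phosphofructokinase, stood at 290 and 243 CPM. Bnip3, a mitochondrial protein that promotes the removal of mitochondria, stood at 408 and 380 CPM. In all, 7 of 31 measured genes were 2-fold higher in neutrophils in both libraries, where 11.5% of all measured genes were. Of the 31, 4 were at least 2-fold lower (Egln1, Ndrg1, Adm and P4ha2), against 45.9% of all genes.

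**Figure D2:**
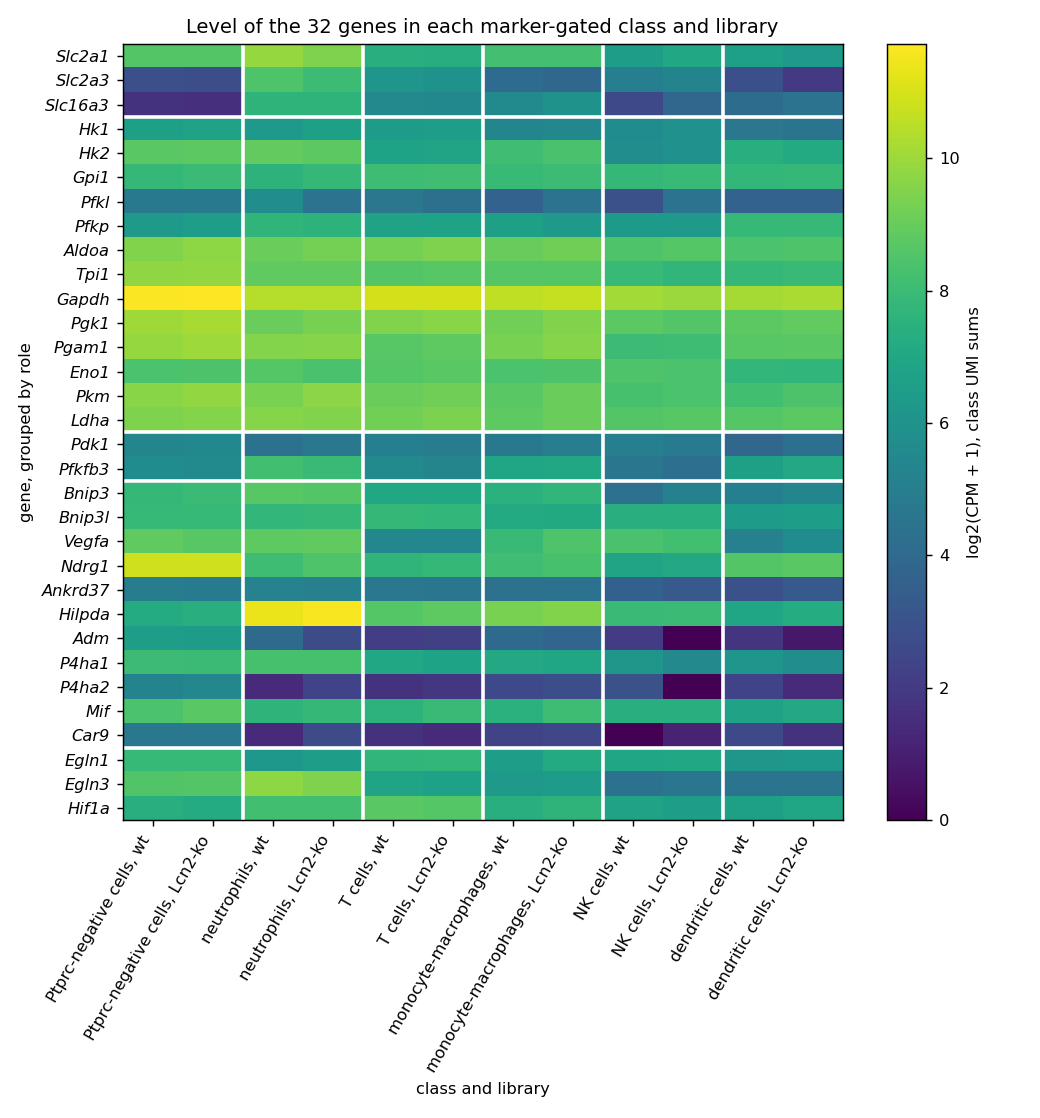
Level of each of the 32 genes as log2(CPM + 1) in 6 classes and 2 libraries, with the genes grouped by role. Hilpda, Slc2a1 and Egln3 are brightest in neutrophils, and Gapdh and Ndrg1 in Ptprc-negative cells; the 2 columns of a class are close for most genes.

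Ptprc-negative cells held a different set. Ndrg1, a stress-induced protein linked to differentiation, stood at 1855 and 1869 CPM there, 6.32-fold and 6.30-fold the other gated cells. Adm, the gene of the vasodilator peptide adrenomedullin, stood at 94.6 and 89.2 CPM, 17.1-fold and 19.0-fold the others. P4ha1 and P4ha2 encode catalytic subunits of the enzyme that hydroxylates collagen; P4ha2 stood at 38.1 and 42.6 CPM, 7.10-fold and 9.92-fold the others. Car9, the gene of a surface carbonic anhydrase, stood at 24.7 and 25.1 CPM, 6.17-fold and 5.78-fold the others. Vegfa, the vessel growth factor, had 462 and 404 CPM there and 445 and 468 CPM in neutrophils. Of the 32 genes 10 were at least 2-fold higher in Ptprc-negative cells in both libraries, where 20.5% of all genes were. The other 5 were Hk2, Tpi1, Pgam1, Egln3 and P4ha1, and 3 were at least 2-fold lower (Slc2a3, Hilpda and Slc16a3), against 17.1% of all genes.

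Free RNA can carry these genes between classes. Col1a1, a collagen gene, stood in T cells at 1.15% and 1.35% of its level in Ptprc-negative cells, where Ndrg1 stood at 10.8% and 11.8%. S100a8, an abundant neutrophil gene, stood in T cells at 0.233% and 0.190% of its neutrophil level, where Hilpda stood at 14.9% and 14.3%. The T cell shares of Ndrg1 and Hilpda were above those of Col1a1 and S100a8. Adm, at 3.55% and 4.18%, was nearer to them.

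Other classes had few genes of their own. T cells were highest for Hif1a, at 415 and 397 CPM, 2.65-fold and 2.60-fold the other cells. T cells also exceeded the other gated cells at least 2-fold for Slc2a3, at 69.2 and 61.4 CPM, and Slc16a3, at 45.4 and 43.0 CPM. Neutrophils were higher for both, and monocyte-macrophages were higher for Slc16a3, at 48.1 and 61.5 CPM. Those 3 of 31 genes compare with 11.9% of all genes, and 7 of 31 were at least 2-fold lower, where 19.6% of all genes were. Dendritic cells exceeded the others for Pfkp, the platelet form of phosphofructokinase, at 228 and 229 CPM (1 of 31, against 8.74% of all genes). Neutrophils were close behind for Pfkp, at 203 and 192 CPM. Dendritic cells were at least 2-fold lower for 19 of 31 genes, where 20.3% of all genes were. NK cells exceeded for 0 of 31, against 5.97% of all genes, and were lower for 15 of 31, where 18% of all genes were lower. In NK cells Vegfa was an exception to the low levels, at 328 and 290 CPM, against 42.7 and 42.3 CPM in T cells. Monocyte-macrophages exceeded for Hilpda alone (1 of 31, against 8.32% of all genes) and were lower for 6, against 15% of all genes. The class with the highest level was the same in both libraries for 28 genes, with 15 highest in Ptprc-negative cells, 10 in neutrophils, 2 in T cells (Gpi1 and Hif1a) and 1 in dendritic cells. Pfkl, Eno1, Ldha and Vegfa changed class. The share of all genes with the same highest class in both libraries is not given here.

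The glycolytic enzymes made up the largest part of the module in every class. They summed to 9571 and 10285 CPM in Ptprc-negative cells, 6515 and 6712 in neutrophils and 4095 and 4322 in dendritic cells. Gapdh led them, at 3258 and 3381 CPM in Ptprc-negative cells and 1375 and 1379 CPM in neutrophils. Some of these genes have near-identical copies, and the counts can be split or shared between them. Of the 60-base stretches in the last 300 bases of their transcripts, 86.5% for Eno1, 76.6% for Gapdh and 41.1% for Mif also occur in another annotated gene, so their levels are uncertain. For Hilpda, Slc2a1, Slc2a3, Slc16a3, Egln3, Vegfa, Pfkl and Ndrg1 none do. Whether counting used strand is not given in the sources used here, and the ends of Tpi1, Gapdh, Bnip3, Ankrd37, Pfkp and Ndrg1 overlap a gene on the opposite strand.

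The libraries were next compared within each class, as the log2 ratio of the Lcn2-ko-labelled library over wt. The module differed by little in any of the 6 classes. The log2 ratio was 0.18 (0.15 to 0.21) in monocyte-macrophages, 0.09 (0.07 to 0.12) in dendritic cells, 0.08 (0.07 to 0.09) in Ptprc-negative cells and 0.07 (0.06 to 0.09) in T cells. It was 0.03 (-0.00 to 0.07) in neutrophils and -0.02 (-0.09 to 0.04) in NK cells. The libraries also stood apart in Hspa1a, a heat-shock gene induced by stress, which was lower in the Lcn2-ko-labelled library in each of the 6 classes. It stood at 1488 and 513 CPM in monocyte-macrophages, with log2 ratios from -1.82 in T cells to -0.50 in neutrophils, and its part in the ratios given here was not tested. The macrophage value of the module was 0.07 with cells thinned to 800 UMIs and 0.24 under a stricter gate. In cells that met no gate it was -0.06 (-0.07 to -0.04).

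In neutrophils the parts of the module differed in direction. The 3 transporters summed to 1496 CPM in wt and 1168 CPM in the Lcn2-ko-labelled library, a log2 ratio of -0.36 (-0.48 to -0.24). The oxygen-sensing genes had a ratio of -0.16 (-0.29 to -0.04), the enzymes 0.04 (-0.01 to 0.09) and the other HIF targets 0.18 (0.12 to 0.24). Slc2a1 was lower by a log2 ratio of -0.40 (-0.55 to -0.25), and stayed between -0.47 and -0.39 under every alternative run. Slc2a3 had -0.46 (-0.71 to -0.21), but -0.15 after thinning. Egln3 had -0.28 (-0.44 to -0.13) and Eno1 -0.29 (-0.52 to -0.07). Hilpda was higher, at 0.25 (0.17 to 0.32), as were Pkm, the muscle-type pyruvate kinase, at 0.29 (0.14 to 0.45), and Pgk1, phosphoglycerate kinase, at 0.29 (0.12 to 0.47). Ndrg1 had 0.41 (0.17 to 0.65), which became -0.00 under the stricter gate. Markers of neutrophil state also differed between the libraries. The 5 tumour-adaptation markers described with the states below, all detected in both libraries, summed to 953 CPM in wt and 1443 CPM in the other library, a log2 ratio of 0.60 (0.48 to 0.72). The 8 early markers had -0.16 (-0.20 to -0.11) and the 6 interferon markers -0.27 (-0.34 to -0.20). Adapted neutrophils had more Hilpda and Ndrg1 and less Slc2a3 than early ones, while Slc2a1 was close to equal. The part of the states in the ratios between the libraries was not tested.

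Of 29 genes measured in neutrophils (20 CPM or more in either library, so that 1 library alone can carry a gene past this limit), 0 were at least 1.5-fold higher in the Lcn2-ko-labelled library, where 11.2% of all measured genes were. A single gene, Pfkl, the liver form of phosphofructokinase, was at least 1.5-fold lower, where 6.06% of all genes were. It had 52.9 CPM from 65 UMIs in wt and 20.8 CPM from 15 UMIs in the other library, a log2 ratio of -1.35 (-2.26 to -0.52). The median log2 ratio was 0.01 over the 29 genes and 0.06 over all genes measured. Adm, Car9 and P4ha2 were below 20 CPM in both libraries. The neutrophil gate held Cd74, an antigen-presentation gene, at 1579 and 1611 CPM. Without the cells that had a Cd74 UMI, 3 genes were at least 1.5-fold higher and 2 lower, and the part of other cells in the result was not tested.

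**Figure D3:**
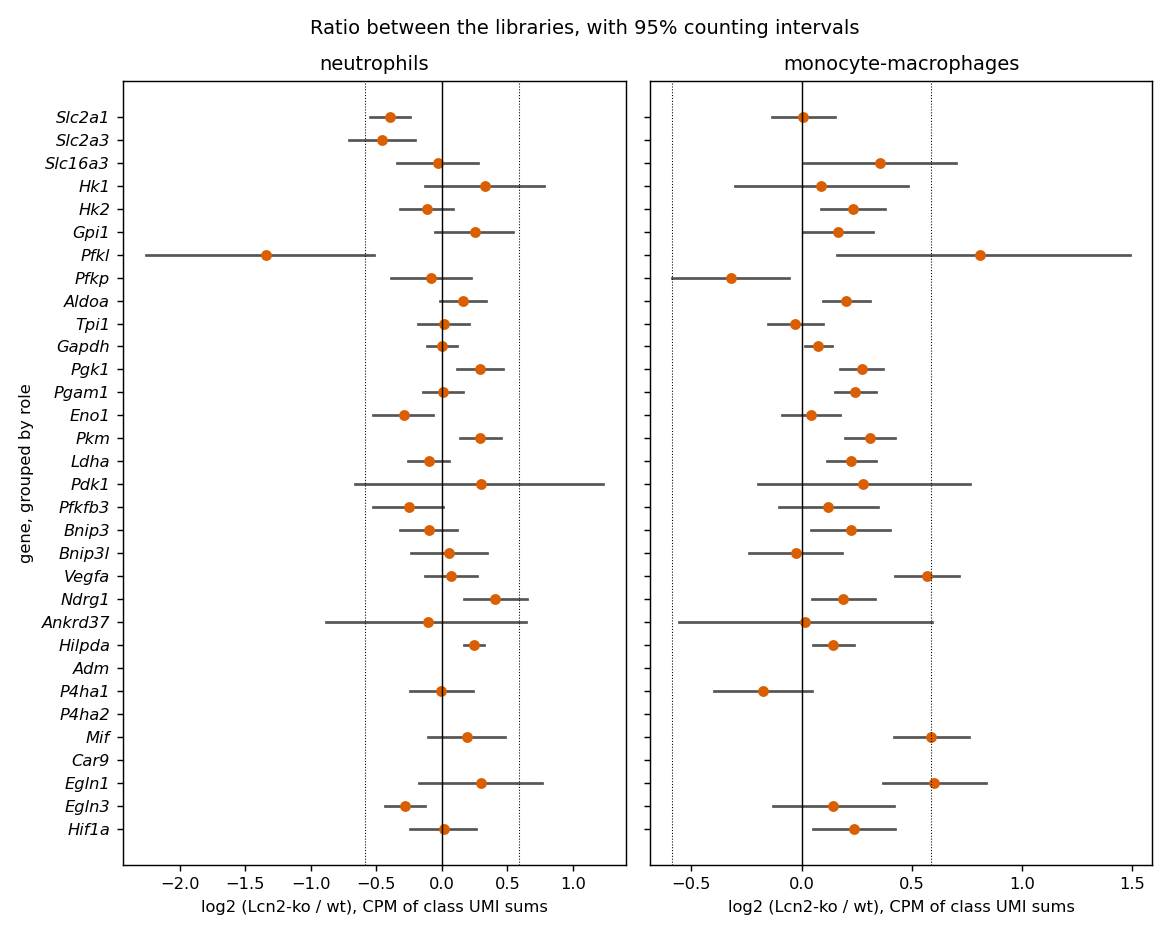
log2 ratio of CPM, library labelled Lcn2-ko over wt, for each measured gene in neutrophils (left) and monocyte-macrophages (right), with points for the ratio, lines for 95% counting intervals and dotted lines at 1.5-fold. In neutrophils Slc2a1, Slc2a3 and Pfkl lie left of 0 and Hilpda right of it; in monocyte-macrophages 24 of 28 genes lie right of 0. The 2 horizontal scales differ.

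In monocyte-macrophages 24 of 28 measured genes had a ratio above 0, with a median log2 ratio of 0.20, against 0.01 over all genes measured. At least 1.5-fold higher were 3 genes, where 1.45% of all genes were, and 0 were as much lower, where 2.71% were. Mif, an inflammatory cytokine, stood at 178 CPM for wt and 268 CPM in the Lcn2-ko-labelled library, a log2 ratio of 0.59 (0.42 to 0.76). Egln1, the main oxygen-sensing prolyl hydroxylase, stood at 95.5 and 145 CPM, a ratio of 0.60 (0.37 to 0.84). Pfkl stood at 12.03 and 21.1 CPM, a ratio of 0.81 (0.16 to 1.49). Vegfa, just short of 1.5-fold at 242 and 359 CPM, had 0.57 (0.42 to 0.71), which became 0.10 in thinned cells and 1.05 under the stricter gate. None of Mif, Egln1 and Pfkl stayed past 1.5-fold in thinned cells, where Mif had 0.48, Pfkl 0.36 and Egln1 0.01, nor with the mixed cells joined in, where they had 0.45, 0.06 and 0.42. Pfkp was lower, at -0.32 (-0.59 to -0.06). Adm, Car9, P4ha2 and Slc2a3 were below the level limit. In the mixed cells 0 of 29 genes were at least 1.5-fold higher and 1 lower, against 2.93% and 6.55% of all genes, and the neutrophil gene S100a8 stood there at 710 and 373 CPM. The part of this difference in the values of the mixed cells was not tested.

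The other classes gave few differences. In T cells 0 of 29 measured genes reached 1.5-fold in either direction, where 0.365% of all genes were higher and 0.651% lower. Mif was the highest there, with 190 and 249 CPM and a log2 ratio of 0.39 (0.30 to 0.48). In Ptprc-negative cells 0 of 30 did, where 0.446% and 0.595% of all genes did. Mif was again highest, with 332 and 420 CPM and a ratio of 0.34 (0.28 to 0.39), and Vegfa lowest, at -0.19 (-0.24 to -0.14). In dendritic cells Vegfa, at 33.4 and 50.9 CPM, was the 1 of 25 genes that reached it, with a ratio of 0.61 (0.28 to 0.95), where 1.85% of all genes were higher and 1.99% lower. Slc2a1 had -0.33 (-0.56 to -0.09) and P4ha1 -0.41 (-0.70 to -0.13) in those cells. In NK cells 2 of 27 were higher (Pfkl and Bnip3, against 6.83% of all genes) and 1 lower (P4ha1, against 8.77%). Their counts were small: Pfkl stood at 6.57 and 20.9 CPM, with a ratio of 1.67 (0.05 to 3.70), and the Bnip3 ratio of 0.80 (-0.22 to 1.92) was 0.17 with doublets kept. Over the 6 classes Pkm had a ratio above 0 in each, and in all 45 pairs of a class and an alternative setting. Aldoa, Gpi1, Hilpda, Mif, Ndrg1 and Pgam1 also lay above 0 in each class, with the sign turned in 1 to 5 of the 45. P4ha1 lay at or below 0 in each, with 7 of 45 turned. The classes share their libraries, so these are not independent. The share of all genes with 1 sign in each of the 6 classes is not given here, so this is no result about the module.

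Other genes of the same pathways, from lists drawn up with the classes, were counted by the same limits. Of 28 further glycolysis genes 12 were measured in neutrophils, with 3 at least 1.5-fold higher and 0 lower. Of all genes measured there, 11.2% were higher and 6.06% lower. Pgd, an enzyme of the pentose phosphate branch, stood at 94.4 and 176 CPM, a log2 ratio of 0.90. Of 22 further oxygen-response genes 14 were measured in neutrophils, with 1 higher and 3 lower, against the same shares of all genes. Cited2, which restrains HIF activity, stood at 917 and 568 CPM (-0.69), Ddit4, a stress-induced inhibitor of the growth kinase mTOR, at 169 and 106 CPM (-0.68), and Ccng2 at 116 and 59.7 CPM (-0.95). In monocyte-macrophages 1 of 13 further glycolysis genes, Pgm1 (0.65), and 0 of 16 oxygen-response genes reached 1.5-fold. Of all genes, 1.45% were higher and 2.71% lower in that class. In NK cells 1 of 11 glycolysis genes was lower. Of 17 oxygen-response genes 4 were higher there, among them Ccng2 (0.59), and 2 lower, among them Kdm3a (-0.85). The shares of all genes in NK cells were 6.83% higher and 8.77% lower. In T cells, dendritic cells and Ptprc-negative cells 0 of either list reached 1.5-fold, and the shares of all genes in these classes are given above.

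States within classes were gated by other genes. Neutrophils with a UMI of a tumour-adaptation marker (Inhba, Gpnmb, Atp6v0d2, Nos2 or Siglecf) held the module at 15471 CPM for wt and 16116 CPM in the Lcn2-ko-labelled library. Neutrophils with at least 3 of the early markers, such as S100a8 and Retnlg, and none of those held 11699 and 11872 CPM, a log2 difference of 0.40 (0.35 to 0.45) and 0.44 (0.37 to 0.51). Of 30 measured genes 8 were at least 1.5-fold higher in the adapted cells in both libraries, where 14.5% of all genes were. Hilpda stood at 3028 against 1974 CPM in wt and 3976 against 1837 CPM in the other library, P4ha1 at 378 against 181 and 420 against 170, and Ndrg1 at 310 against 153 and 448 against 184. Slc2a3 went the other way, the 1 gene at least 1.5-fold lower (against 5.07% of all genes), at 260 against 593 CPM in wt and 149 against 505 CPM in the other. Slc2a1 was close to equal, with log2 differences of -0.02 and -0.06. Adapted cells were somewhat deeper, with medians of 1568 and 1388 UMIs against 1389 and 1225. The adaptation markers are not held by neutrophils alone. A UMI of 1 of them was found in 41.1% and 46.0% of neutrophils and 41.9% and 46.7% of monocyte-macrophages. In Ptprc-negative cells, which were deeper, the shares were 70.4% and 79.1%. The part of RNA from other cells in the adapted state was not tested. Neutrophils with UMIs of more than 1 interferon-response gene differed from the rest by 0.02 (-0.03 to 0.06) and -0.04 (-0.10 to 0.01). Of 30 genes 0 reached 1.5-fold, where 8.16% of all genes were higher and 4.45% lower.

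**Figure D4:**
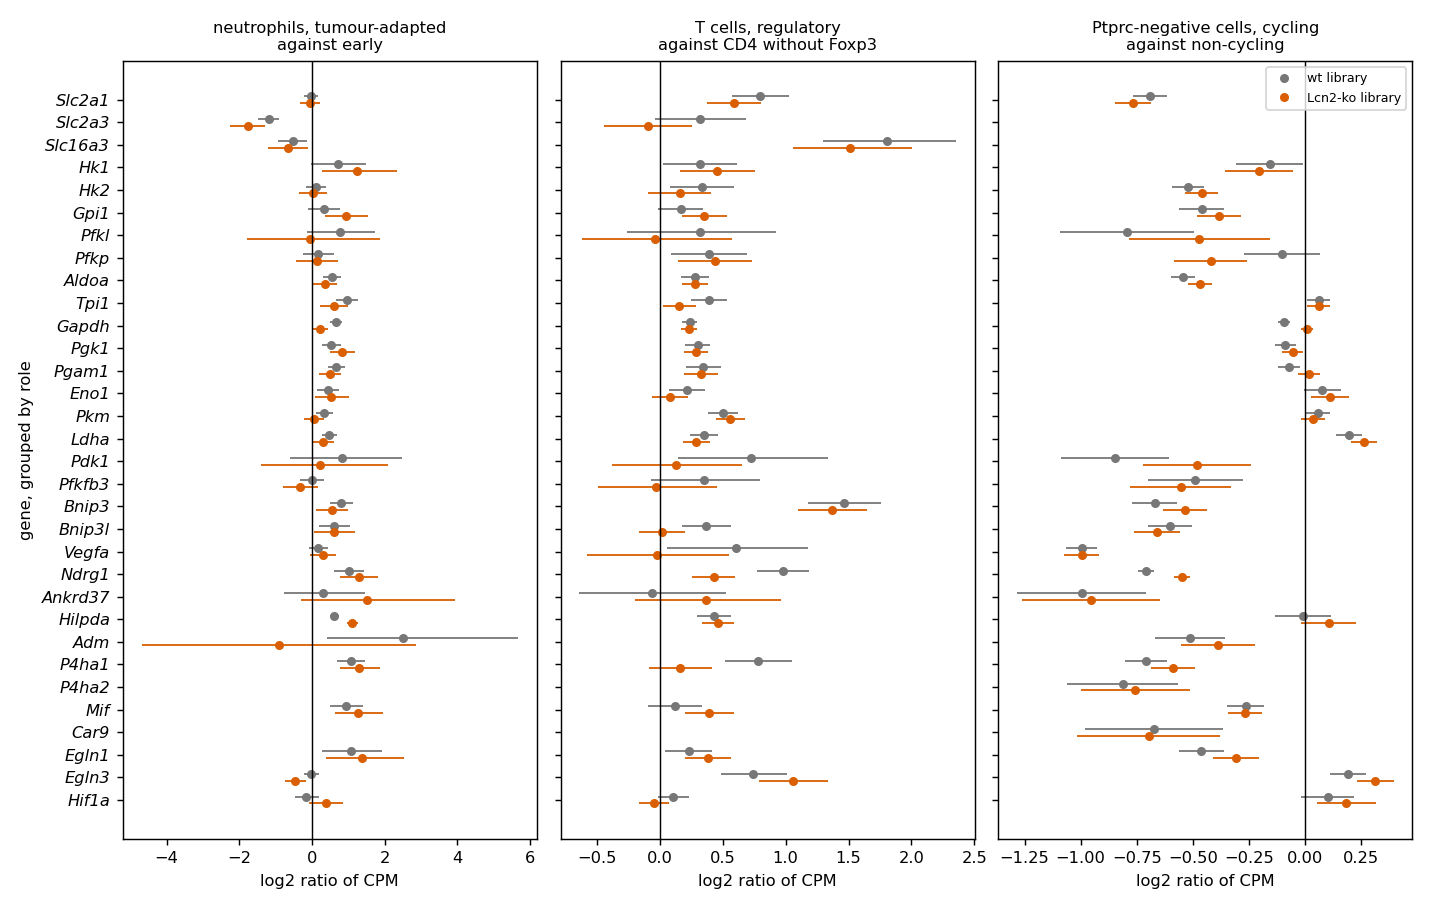
log2 ratio of CPM between 2 states of a class for each measured gene: tumour-adapted against early neutrophils, regulatory against other CD4 T cells, and cycling against non-cycling Ptprc-negative cells, in the wt library (grey) and the Lcn2-ko-labelled library (orange), with 95% counting intervals. Slc2a3 lies left of 0 in adapted neutrophils, Bnip3 and Slc16a3 right of it in regulatory T cells, and Vegfa left of it in cycling Ptprc-negative cells, in both libraries. The 3 horizontal scales differ.

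Regulatory T cells, gated by Foxp3, held the module at 11437 and 11932 CPM, against 8934 and 9650 CPM in CD4 T cells without Foxp3. Of 29 genes 4 were at least 1.5-fold higher in them in both libraries, where 5.29% of all genes were, and 0 lower, where 5.99% were. Slc16a3 stood at 88.6 against 25.3 CPM in wt and 91.0 against 31.8 in the other library, and Bnip3 at 227 against 82.3 and 239 against 92.7. Slc2a1 and Egln3 were the other members. CD8 T cells held less, at 6492 and 7483 CPM, with log2 differences from the same CD4 cells of -0.46 and -0.37. Of the 29 genes 5 were at least 1.5-fold lower in both libraries, where 8.87% of all genes were, and 0 higher, where 4.64% were. Hif1a stood at 198 against 562 CPM in wt and 227 against 607 CPM in the other library, and Egln3, Hk2, Ndrg1 and Slc16a3 were also lower. Both comparisons use the same CD4 cells. Between the libraries, CD8 T cells had a module log2 ratio of 0.20 (0.18 to 0.23), regulatory T cells 0.06 (0.04 to 0.08) and other CD4 T cells 0.11 (0.08 to 0.15).

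Cycling cells differed by class. A cell was called cycling if it had UMIs of more than 1 proliferation gene. In cycling Ptprc-negative cells the module was lower than in the rest. It stood at 13413 against 16079 CPM in wt and 14461 against 16433 CPM in the Lcn2-ko-labelled library. Of 30 genes 7 were at least 1.5-fold lower in both libraries, where 7.99% of all genes were, and 0 higher, where 12.5% were. Vegfa stood at 327 against 651 CPM in wt and 283 against 563 CPM in the other library. Slc2a1, Bnip3l, Ankrd37, P4ha1, P4ha2 and Car9 were lower too. The cycling cells had median depths of 12040 and 12208 UMIs, against 6405 and 6723 in the rest, and the part of depth was not tested. In T cells the difference was 0.12 and 0.13 in the opposite direction, with 1 of 29 genes, Slc2a3, at least 1.5-fold lower, where 11% of all genes were, and 0 higher, where 9.8% were.

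Macrophages with a C1q UMI, 266 and 315 cells, were compared with only 28 and 29 monocytes without one. Hk2, Vegfa and Hilpda were at least 1.5-fold higher in the C1q cells in both libraries (3 of 28, against 15.4% of all genes), and Pfkl and Egln3 lower (2 of 28, against 9.68%). The monocytes gave few UMIs of these genes, 35 and 31 of Hilpda and 3 and 4 of Pfkl. The module differed by -0.02 (-0.11 to 0.08) in wt and 0.12 (0.03 to 0.22) in the other library.

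Among dendritic cells, those with the maturation genes Ccr7 or Fscn1 were compared with those with Cd209a or Clec10a, which numbered only 41 and 44. In the mature cells Pfkfb3 stood at 421 against 113 CPM in wt and 550 against 18.6 CPM in the Lcn2-ko-labelled library, and Ndrg1 at 692 against 132 and 834 against 242. Slc2a1 stood at 53.0 against 233 and 41.3 against 228 CPM, and Ldha, lactate dehydrogenase A, at 206 against 444 and 162 against 502 CPM. In all, 3 of 28 genes were at least 1.5-fold higher in both libraries and 6 lower, against 16.4% and 23.8% of all genes. The module itself had opposite directions, with a log2 difference of 0.12 (0.02 to 0.22) in wt and -0.20 (-0.29 to -0.10) in the other library. Dendritic cells with Xcr1 or Clec9a, the cross-presenting kind, were lower than the Cd209a or Clec10a cells for 10 of 27 genes and higher for 0, against 11.8% and 10.7% of all genes; Hilpda stood at 50.6 against 163 and 59.2 against 390 CPM.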

How the data were processed

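The authors deposited counts: each matrix entry is the number of UMIs of a gene in a barcode, without scaling. The submitters' processing notes name Cell Ranger and mm10, but neither a version nor what each was used for. Filters applied before deposit are not given in the sources used here. Of the sample columns in these files, 0 were left unused. Groups are the genotype labels.

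Barcodes under 200 genes or above 20% mitochondrial UMIs were removed. Scrublet, in scanpy 1.11.5, called 0 doublets per library at its own threshold, and the top 4% of its scores were then removed instead. Each cell was scored per class as the mean log of 1 plus its UMIs per 10000 over marker genes. The best class needed 3 markers and 1.5 times the score of the second, or 2 times for neutrophils. NK cells needed no Cd3e UMI, and Ptprc-negative cells no Ptprc UMI. Cells that failed this with neutrophil and macrophage scores on top were set apart as mixed. This scoring rule was settled by trial on these data. A rule on the share of markers detected, and the log score at 1 margin for all classes, with lower margins also looked at, were tried before it. They were judged by cell numbers per class, by marker levels and against the cell numbers of an earlier analysis of these data. Levels of the 32 genes were not looked at in those trials. The stricter gate needed 4 markers and 2 times the second score, or 3 times for neutrophils. Early neutrophils needed 3 early markers, a limit also set after the data were seen.

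For each class and library, UMIs were added up and scaled to 1e+06 (CPM). No test was run, as each label has 1 library. Intervals are exact Poisson for levels and exact conditional binomial for ratios (scipy 1.17.1), at 95%, and cover counting error only. A gene was measured in a class at 20 CPM or more in either library, so a gene may pass through 1 library alone. Between classes, 20 CPM in the class or in the other gated cells of either library was enough. A gene may thus pass through the class where it is high. The 2 Aldoa rows were summed. On simulated counts with 200 changed genes, the intervals held the true ratio for 96.1% of 4572 genes at neutrophil depth, and 7.46% of unchanged genes passed 1.5-fold by counting error, against 0 of the unchanged genes among 6145 at T cell depth.

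The 32 genes, the lists and the comparisons were chosen with earlier results of these data known. Genes were named if they were among the 4 highest or lowest ratios or the 4 highest levels of a class, or at least 2-fold higher in a class than in other gated cells in both libraries. Of the further pathway genes, up to 4 per class past 1.5-fold were named, those with the most UMIs. Not every gene in these counts is reported here by name. A few others, such as Vegfa in NK cells, were named after their values were seen. Alternatives covered doublets, gates, scaling, thinning, the mitochondrial limit, level and fold limits, and single cells or genes left out. Leaving out neutrophils over 5000 UMIs or with a Cd74 UMI, and joining the mixed cells to macrophages, were added after the data were seen. Promoter sequences are from RefSeq on GRCm38.p6, and gene ends from GENCODE M21.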

Additional observations from a re-analysis of the deposited data

Results flagged for a closer look

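For 2 of the 32 genes the ratio of the Lcn2-ko-labelled library over wt had opposite directions in different classes, with counting intervals that left out 0 on both sides and at least 1 class past 1.5-fold. With 1 library per label the difference between classes was not tested. The share of all genes that meet this rule is not given here. Pfkl had log2 ratios of -1.35 in neutrophils and -0.34 in T cells, against 0.81 in monocyte-macrophages and 1.67 in NK cells. Pfkl was a low gene, at 6.57 to 52.9 CPM in these classes of the wt library. In monocyte-macrophages and NK cells it passed the limit of 20 CPM only through the Lcn2-ko-labelled library, at 21.1 and 20.9 CPM. In T cells it passed only through wt, at 23.9 CPM. The limit thus favoured the direction seen in these classes, and the opposite directions rest in part on it. The counting interval in NK cells, given above, was wide. The macrophage value was 0.06 with the mixed cells joined in. The neutrophil value lay between -1.93 and -1.21 under the alternatives run.

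Vegfa had -0.19 in Ptprc-negative cells, against 0.57 in monocyte-macrophages and 0.61 in dendritic cells. In monocyte-macrophages the value was 1.05 under the stricter gate, 0.36 as a mean over cells and 0.10 in thinned cells.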

How the results depend on the processing

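No called value changed sign. As reported, 13 of the 15 pairs of classes kept the same order in both libraries, and 13 to 15 did under the alternatives. The module ratio between the libraries stayed above 0 in neutrophils (0.01 to 0.06), monocyte-macrophages (0.07 to 0.24), dendritic cells (0.06 to 0.10), T cells (0.06 to 0.08) and Ptprc-negative cells (0.07 to 0.11) and ran from -0.07 to 0.01 in NK cells. The cause of each move below was not tested, except where fewer genes or another total define it. No paired analysis was possible because each label has 1 library; for the same reason no library could be left out. Depth limits the neutrophil ratios of low genes such as Pfkl.

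Module levels in CPM (wt, then the Lcn2-ko-labelled library) left their counting intervals as follows. With doublets kept they were neutrophils 13852 and 14080. Under the stricter gate they were neutrophils 14436 (wt only), monocyte-macrophages 8044 (wt only), dendritic cells 5152 and 5384 and T cells 8818 and 9222. Without mitochondrial and ribosomal protein UMIs in the total they were neutrophils 15101 and 15384, monocyte-macrophages 9642 and 10911, dendritic cells 6220 and 6615, T cells 10464 and 11092, NK cells 6803 and 6702 and Ptprc-negative cells 16624 and 17569. Without cells over 5000 UMIs they were neutrophils 14414 and 14740. Without cells with a Cd74 UMI they were neutrophils 14831 and 15317. Without Gapdh, Ndrg1, Pgk1 and Pgam1 they were neutrophils 11184 and 11272, monocyte-macrophages 5217 and 5949, dendritic cells 3010 and 3221, T cells 5357 and 5670, NK cells 3532 and 3569 and Ptprc-negative cells 7386 and 7842. As a mean over cells they were neutrophils 14901 (Lcn2-ko only), monocyte-macrophages 8410 and 9192, T cells 8400 and 8786, NK cells 4976 and 4961 and Ptprc-negative cells 14149 (wt only). Thinned to 800 UMIs they were monocyte-macrophages 8630 and 9070, dendritic cells 5481 (wt only), T cells 8440 and 8825, NK cells 5115 and 4873 and Ptprc-negative cells 14271 and 15404. With the mixed cells joined in they were monocyte-macrophages 9023 and 10182. At a mitochondrial limit of 10% they were Ptprc-negative cells 14617 (wt only). In monocyte-macrophages the module ratio was 0.24 under the stricter gate, 0.13 as a mean over cells and 0.072 thinned to 800 UMIs. In dendritic cells the module ratio was 0.064 under the stricter gate. In Ptprc-negative cells the module ratio was 0.11 as a mean over cells, 0.11 thinned to 800 UMIs and 0.086 without Gapdh, Ndrg1, Pgk1 and Pgam1. For genes at least 1.5-fold apart between the libraries, counts moved too. Under the stricter gate the counts became 1 higher in neutrophils and 0 higher in dendritic cells. Without cells with a Cd74 UMI the counts became 3 higher in neutrophils and 2 lower in neutrophils. With 3 UMIs as the only level limit the counts became 2 higher in neutrophils, 2 lower in neutrophils, 4 lower in dendritic cells and 2 lower in NK cells. As a mean over cells the counts became 1 higher in monocyte-macrophages, 1 lower in monocyte-macrophages and 2 lower in NK cells. Thinned to 800 UMIs the counts became 0 higher in monocyte-macrophages, 3 lower in monocyte-macrophages, 4 higher in dendritic cells, 4 lower in dendritic cells, 7 higher in NK cells and 5 lower in NK cells. With the mixed cells joined in the counts became 0 higher in monocyte-macrophages. At a fold limit of 2 the counts became 0 higher in monocyte-macrophages, 0 higher in dendritic cells, 1 higher in NK cells and 0 lower in NK cells. At a mitochondrial limit of 10% the counts became 0 higher in dendritic cells and 0 lower in NK cells. With doublets kept the counts became 1 higher in NK cells. Without the top module cell the counts became 1 higher in NK cells. At a level limit of 50 CPM the counts became 0 higher in NK cells. At a fold limit of 1.5 between classes, 11 genes were higher in neutrophils, 3 genes were higher in monocyte-macrophages, 2 genes were higher in dendritic cells, 11 genes were lower in T cells, 18 genes were higher in Ptprc-negative cells and 5 genes were lower in Ptprc-negative cells. States were also gated by 2 distinct markers, or by 3 for the interferon and cycling states, which already needed 2. The ratio between the libraries then became -0.066 in neutrophils (tumour-adapted), 0.042 in neutrophils (not tumour-adapted) and -0.051 in neutrophils (interferon). It became 0.20 in monocytes without C1q, 0.037 in dendritic cells (Cd209a or Clec10a) and -0.16 in dendritic cells (Ccr7 or Fscn1). It became 0.18 in T cells (CD8), 0.10 in Ptprc-negative cells (cycling) and 0.045 in Ptprc-negative cells (non-cycling). The sign turned in tumour-adapted and in the other neutrophils and in interferon neutrophils, none of them past 1.5-fold. Thinned median scores were 5000 in dendritic cells of wt, 7500 in T cells of wt, 7500 in T cells of Lcn2-ko, 5000 in NK cells of wt and 3750 in NK cells of Lcn2-ko.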
